A study of Mus musculus with 4 samples.

Results

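The Zfp genes on chromosome 7 of the mouse code for zinc finger proteins, most of them with arrays of C2H2 fingers, and were examined for enriched regions of H3K36me3 and H3K9me3 in embryonic stem (ES) cells. They were taken as all protein-coding genes on chromosome 7 whose name in the GENCODE vM1 annotation of NCBIM37 (mm9) is Zfp and a number. The rule gave 86 genes of 22359 protein-coding genes with an annotated coding transcript on chromosomes 1 to 19, X and Y. A further 258 genes with such names lay on other chromosomes.

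The study carried out chromatin immunoprecipitation followed by sequencing for H3K9me3 and H3K36me3 in 129S1/SvImJ mouse ES cells at passages below 20, grown in foetal calf serum with leukemia inhibitory factor. WT cells carried unmodified H3f3a and H3f3b. Targeted H3.3 G34R cells carried 1 H3f3a copy with the glycine to arginine substitution under the endogenous H3f3a promoter, beside 1 WT copy of H3f3a and unmodified H3f3b, and the labels do not say how many clones were used. There were 4 libraries, 1 for each combination of cell type and mark. For each mark the authors deposited 1 list of genic regions that were enriched in WT or in G34R cells, with 31593 regions for H3K36me3 and 32502 for H3K9me3. The lists hold positions without read values, so in which of the cell types a region was enriched cannot be told apart, the depth is unknown, and there is no spread between replicates. No test was therefore made, and the intervals given below are 95% Wilson intervals of a share of genes, which treat genes as independent and cover counting error only.

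Many C2H2 zinc finger proteins carry a KRAB domain at the N-terminus, through which they recruit TRIM28 and the H3K9 methyltransferase SETDB1 to the DNA that their fingers bind. The finger array is usually coded by a single long exon at the end of the gene. H3K36me3 is deposited by SETD2 in the bodies of transcribed genes, H3K9me3 is associated with silencing, and zinc finger genes are known as loci where H3K9me3 lies in the gene body. The KDM4 demethylases remove both marks.

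To show what the fingers look like in the DNA of these genes, 1 finger was printed from each of 9 members, 84 bases from the first cysteine codon. Capitals mark the codons of the 2 cysteines and the 2 histidines. Zfp180, Zfp629, Zfp553, Zfp936, Zfp787 and Zfp27 are shown because the finger lay in both lists, Zfp473 for H3K36me3 alone, Zfp768 for H3K9me3 alone and Zfp658 as a member in neither list.
Zfp180: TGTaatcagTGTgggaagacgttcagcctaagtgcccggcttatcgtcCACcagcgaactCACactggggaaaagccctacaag
Zfp629: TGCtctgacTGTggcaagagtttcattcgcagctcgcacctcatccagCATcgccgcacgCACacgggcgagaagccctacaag
Zfp553: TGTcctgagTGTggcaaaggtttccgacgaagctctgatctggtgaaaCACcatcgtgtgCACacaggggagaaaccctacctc
Zfp936: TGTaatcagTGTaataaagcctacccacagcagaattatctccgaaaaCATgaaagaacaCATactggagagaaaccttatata
Zfp787: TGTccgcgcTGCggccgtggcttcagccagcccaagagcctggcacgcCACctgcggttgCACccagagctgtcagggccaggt
Zfp27: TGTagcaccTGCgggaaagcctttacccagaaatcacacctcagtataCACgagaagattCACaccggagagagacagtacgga
Zfp473: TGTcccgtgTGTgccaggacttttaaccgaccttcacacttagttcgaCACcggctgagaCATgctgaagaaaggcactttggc
Zfp768: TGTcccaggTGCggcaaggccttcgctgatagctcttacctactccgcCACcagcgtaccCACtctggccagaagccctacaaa
Zfp658: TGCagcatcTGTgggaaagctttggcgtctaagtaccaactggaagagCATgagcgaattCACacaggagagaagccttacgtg

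The sequences were read from the NCBIM37 assembly in the direction of transcription, within the last coding exon. On the plus strand they lie at chr7:24890974-24891057 (Zfp180), chr7:134380061-134380144 (Zfp553), chr7:50445183-50445266 (Zfp936) and chr7:50829332-50829415 (Zfp658). On the minus strand they lie at chr7:134754692-134754775 (Zfp629), chr7:6084232-6084315 (Zfp787), chr7:30679764-30679847 (Zfp27), chr7:51988643-51988726 (Zfp473) and chr7:134487356-134487439 (Zfp768). Over the 36 pairs, between 28 and 55 of the 84 bases were identical, with a median of 43. The fingers of Zfp180 and Zfp629, both in both lists, shared 55 bases, and the finger of Zfp658, in neither list, shared 52 with that of Zfp27.

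The label of ES cells was checked on marker genes. All 10 ES cell markers (such as Pou5f1, Sox2 and Nanog) held H3K36me3 regions, and 1, Esrrb, also held H3K9me3. Of 6 fibroblast markers, 0 held H3K36me3 and 4 held H3K9me3. Among all protein-coding genes, 34% held H3K36me3 and 40.2% H3K9me3. A further 13 genes, among them those of TRIM28, SETDB1, SETD2 and KDM4, are described at the end.

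Regions of H3K36me3 were found in 52 of the 86 genes (60.5%, interval 49.9 to 70.1), against 34% of all protein-coding genes. H3K9me3 was found in 37 (43%, interval 33.1 to 53.6), against 40.2%, which is close to the share of all genes. Regions of each list lay in 25 members (29.1%, background 12.1%), and 19 had base pairs in both lists (22.1%, interval 14.6 to 31.9), against 7.14% of all genes. H3K36me3 without H3K9me3 was seen in 27 members (31.4%, interval 22.6 to 41.8), against 22% of all genes. H3K9me3 without H3K36me3 was seen in 12 (14%, interval 8.17 to 22.8), a lower share than the 28.1% of all genes, and 22 held no region. The 6 members that carried both marks at separate places were Zfp606, Zfp111, Zfp109, Zfp790, Zfp940 and Zfp507. When only regions of at least 1 kb were used, H3K36me3 was found in 38 members (44.2%) against 28.4% of all genes, and H3K9me3 in 21 (24.4%) against 24.6%. Each list was found in 12 (14%, interval 8.17 to 22.8) against 5.55%, and shared sequence in 10 (11.6%, interval 6.44 to 20.1) against 3.6%.

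**Figure D1:**
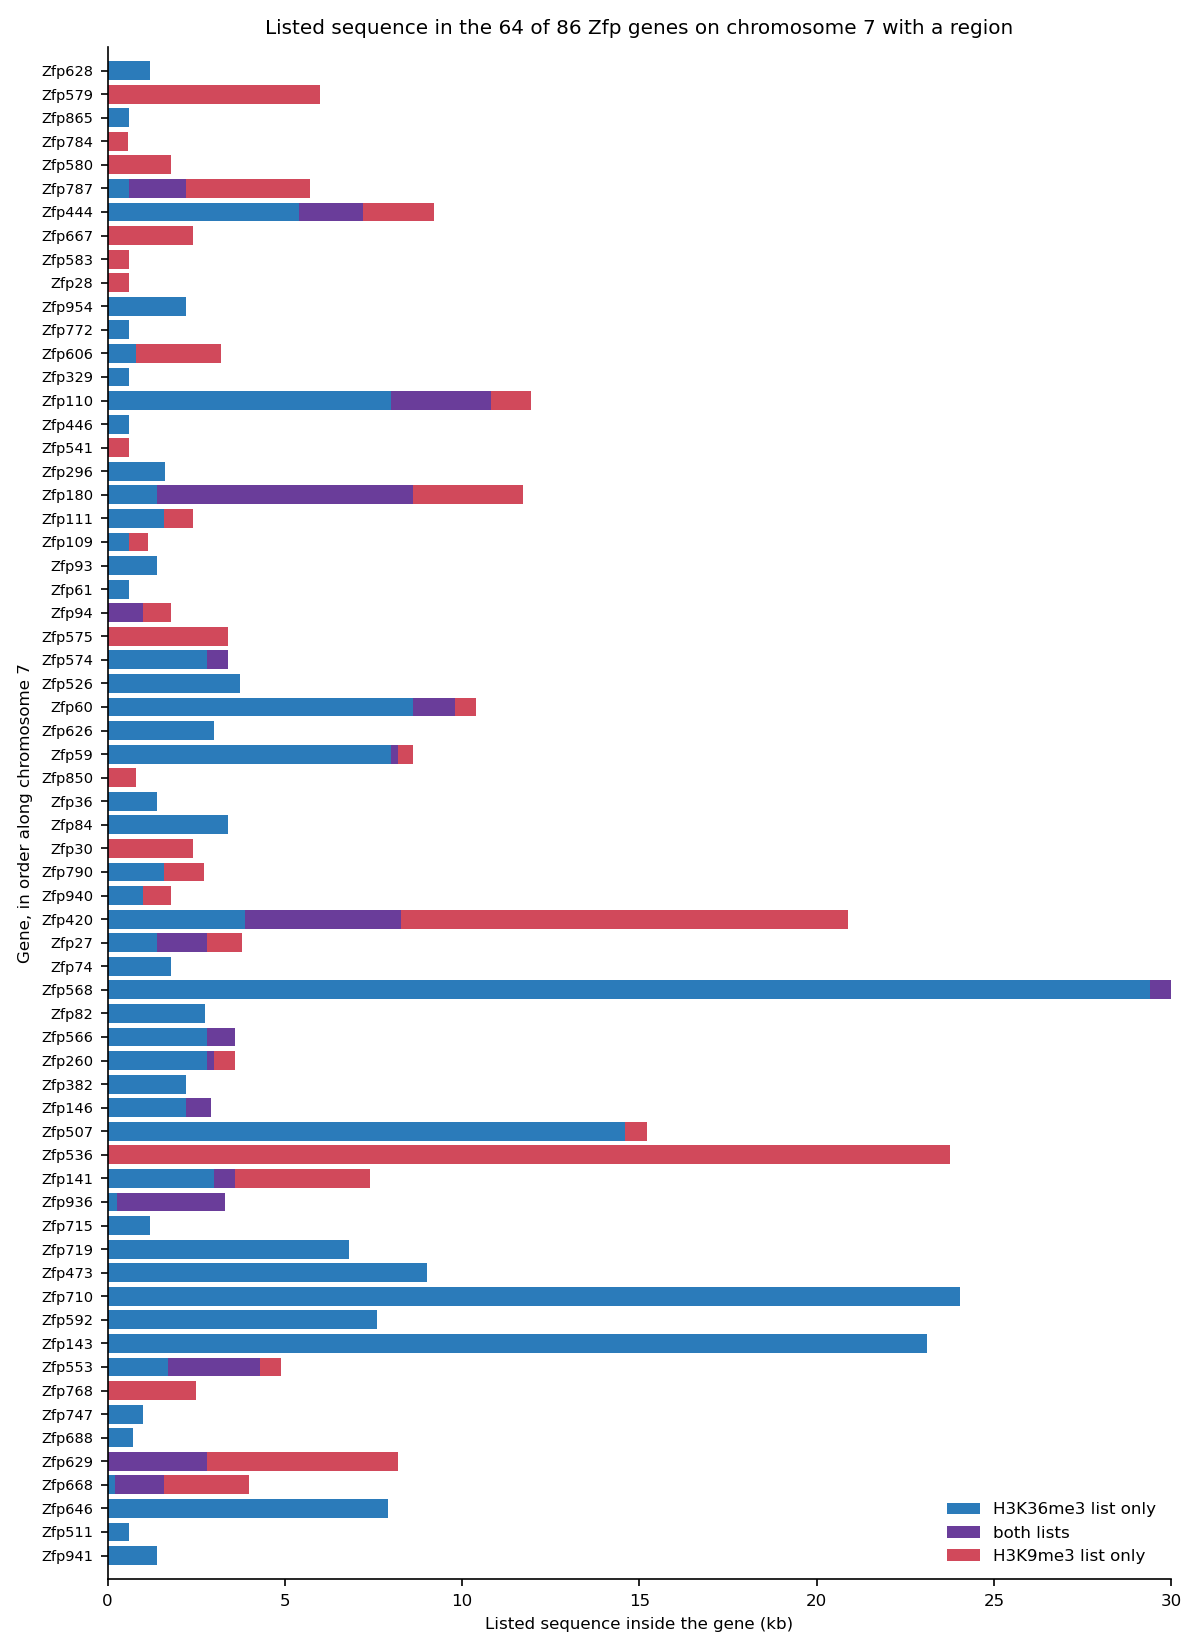
Listed sequence (kb) inside each of the 64 Zfp genes with a region, in order along chromosome 7; blue, H3K36me3 list only, red, H3K9me3 list only, purple, both lists. Zfp568 reached 30 kb, nearly all of it H3K36me3 only, while Zfp180 held the most sequence in both lists with 7.2 kb.

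The share with both marks was similar in Zfp genes elsewhere. Among the 258 genes on other chromosomes, 54.3% held H3K36me3, 48.4% held H3K9me3 and 19.4% held base pairs in both lists (interval 15 to 24.6, which overlaps that of the members). Of 451 genes with a C2H2 motif and another name the shares were 45%, 49.2% and 15.3%. The remaining 1983 protein-coding genes of chromosome 7 showed 28%, 33.8% and 5.7%. Gene length differed between these sets, with a median of 11954 bp in the members, 15858 bp in Zfp genes elsewhere, 8879 bp in the other genes of chromosome 7 and 15427 bp in all protein-coding genes. Its part in the shares was not tested.

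In base pairs, the members spanned 1623812 bp, of which 245839 (15.1%) were in the H3K36me3 list, 122176 (7.52%) in the H3K9me3 list and 33559 (2.07%) in both. Across all protein-coding genes the values were 5.6%, 3.34% and 0.314%. Summed over genes, the members gave 15.2%, 7.61% and 2.14%, and Zfp genes on other chromosomes 9.55%, 5.42% and 1.57%. The sequence in both lists made up 13.7% of the H3K36me3 bases and 27.5% of the H3K9me3 bases of the members, compared with 5.6% and 9.4% in all protein-coding genes. One gene weighed on these totals. Zfp536, a zinc finger gene known from the developing brain, spans 451079 bp and held 23771 bp of H3K9me3, and without it the shares of the members were 21%, 8.39% and 2.86%.

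The regions were mostly narrow. There were 162 H3K36me3 regions in the members with a median of 1000 bp and 99 H3K9me3 regions with a median of 800 bp. The widest were 8400 bp in Zfp143 (H3K36me3) and 8600 bp in Zfp420 (H3K9me3). At the minimum width of the lists, 600 bp, were 45 and 43 regions, respectively. Of the H3K36me3 regions 104 (64.2%) touched an intron and none of the other parts considered, as did 63 of the H3K9me3 regions (63.6%). Assigned base by base, 61% of the H3K36me3 bases and 55.6% of the H3K9me3 bases were intron, which makes up 76.1% of the members' bases. Regions of the H3K36me3 list held sequence of the other list in 29 cases, and those of the H3K9me3 list in 30.

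Next, the regions were assigned to the parts of each gene (gene start within 1 kb on both sides, intron, last coding exon and last 1 kb of the gene), with 1 bp as the least overlap. The last coding exon is the exon with the final coding base of the transcript with the longest coding sequence. This exon held H3K36me3 in 45 members (52.3%, interval 41.9 to 62.6), against 23.4% of all protein-coding genes. H3K9me3 touched it in 24 members (27.9%, interval 19.5 to 38.2), against 10.1%, and sequence in both lists in 13 (15.1%, interval 9.05 to 24.2), against 1.49%. In Zfp genes on other chromosomes the values were 44.2%, 25.6% and 11.2%, and their intervals overlapped those of the members. By length, 31.8% of the bases of these exons were in the H3K36me3 list, 20.3% in the H3K9me3 list and 8.78% in both, compared with 14.8%, 7.03% and 0.939% in all protein-coding genes. Zfp genes on other chromosomes gave 21.3%, 14.2% and 4.44%, and genes with a C2H2 motif and another name 18.7%, 13.2% and 3.97%.

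Introns showed H3K36me3 in 42 members (48.8%, background 32.1%), H3K9me3 in 29 (33.7%, background 36.6%) and both in 16 (18.6%, background 6.59%). The last 1 kb of the gene held H3K36me3 in 23 members (26.7%, background 18.7%), H3K9me3 in 20 (23.3%, background 8.29%) and both in 7 (8.14%, background 1.11%). Gene starts held H3K36me3 in 6 members (6.98%, background 2.62%), H3K9me3 in 14 (16.3%, background 19.1%) and both in 1, Zfp936 (background 0.371%). For H3K9me3 the start and intron shares were thus near those of all genes, while the shares of the last coding exon and the 3′ end were above them. These last parts overlap. The 3′ ends held 13418 bp of H3K9me3 and 3861 bp in both lists. With each base counted once, as last coding exon or start before 3′ end, 82 bp and 0 bp remained there. The 3′ end values of H3K9me3 thus largely repeat those of the last coding exon. With regions of at least 1 kb only, H3K9me3 was found in introns of 17 members (19.8%, against 22.8% of all genes) and at 9 starts (10.5%, against 10.8%), and both lists in introns of 7 (8.14%, against 3.43%). With the last 500 bp as the 3′ end, H3K36me3 was found in 15 members (17.4%, against 15.6%) and both lists in 4 (4.65%, against 0.827%).

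**Figure D2:**
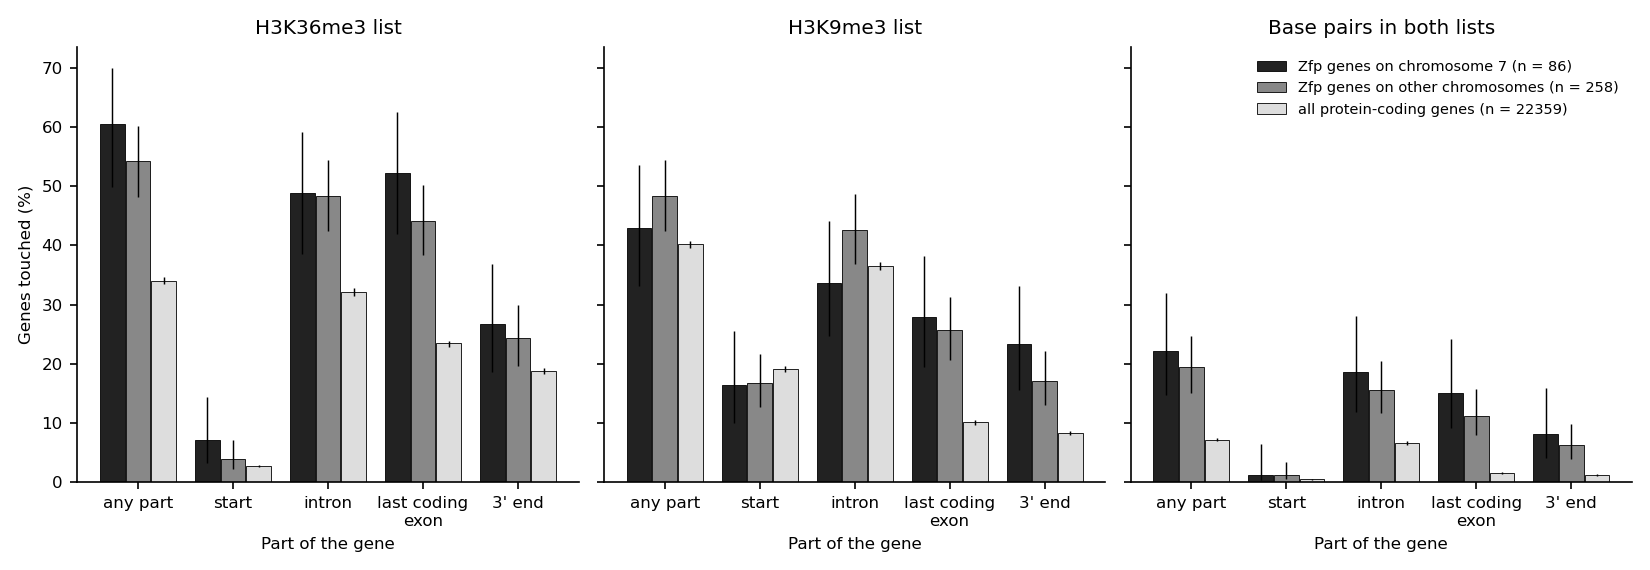
Share of genes (%) with at least 1 bp of the H3K36me3 list, the H3K9me3 list or both in each part of the gene; bars, Zfp genes on chromosome 7 (n = 86), Zfp genes on other chromosomes (n = 258) and all protein-coding genes (n = 22359); error bars, 95% Wilson intervals over genes. The last coding exon was in both lists in 15.1%, 11.2% and 1.49% of the genes, respectively.

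Long last exons can be touched more often than short ones. The last coding exon had a median of 2128 bp in the members (quartiles 1470 and 3197) and 948 bp in all protein-coding genes. When only genes with a last coding exon of 1 to 5 kb were compared, H3K36me3 touched it in 39 of 70 members (55.7%) against 27.1% of 10005 genes, H3K9me3 in 20 (28.6%) against 14.1%, and both in 11 (15.7%) against 2.2%. Within these limits the exons of the members were still longer, with a median of 2216 bp against 1837 bp. Exons were often covered in part only. In 11 members (12.8%, interval 7.29 to 21.5) the whole last coding exon was in the H3K36me3 list, against 9.57% of all genes, whose exons are shorter. It was in the H3K9me3 list in 6 members (6.98%, interval 3.24 to 14.4) against 2.67%, and in both lists in 1, Zfp936, against 0.340% of all genes. For last coding exons of 1 to 5 kb the shares wholly covered were 10% against 4.79% for H3K36me3 and 7.14% against 2.16% for H3K9me3.

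The position of the marks was followed along the end of the coding sequence in steps of 200 bp. H3K36me3 lay between 19.7% and 22.7% of the bases at 2.4 to 5 kb before the last coding base, reached 44.1% at 0.4 to 0.6 kb before it, and was 10.4% at 1 to 1.2 kb after it. H3K9me3 rose from 5.47% at 4.8 to 5 kb before to 22.4% at 0.4 to 0.6 kb before, and was still 22.2% at 0.2 to 0.4 kb after the coding end and 14.4% at 1.2 to 1.4 kb after. Sequence in both lists was highest at 0.6 to 0.8 kb before the coding end, with 11.5%. Only 33 of the genes still had sequence at 1.2 kb after the coding end, so that the right side rests on fewer genes. In all protein-coding genes the shares also rose toward the coding end. There H3K36me3 was 16% at 4.8 to 5 kb before, 19.6% at 0.4 to 0.6 kb before and 22.7% in the 0.2 kb after. H3K9me3 was 4.28% at 4.8 to 5 kb before and 7.34% at 0.4 to 0.6 kb before. Both lists together gave 0.698% at 4.8 to 5 kb before and 0.934% at 0.6 to 0.8 kb before.

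**Figure D3:**
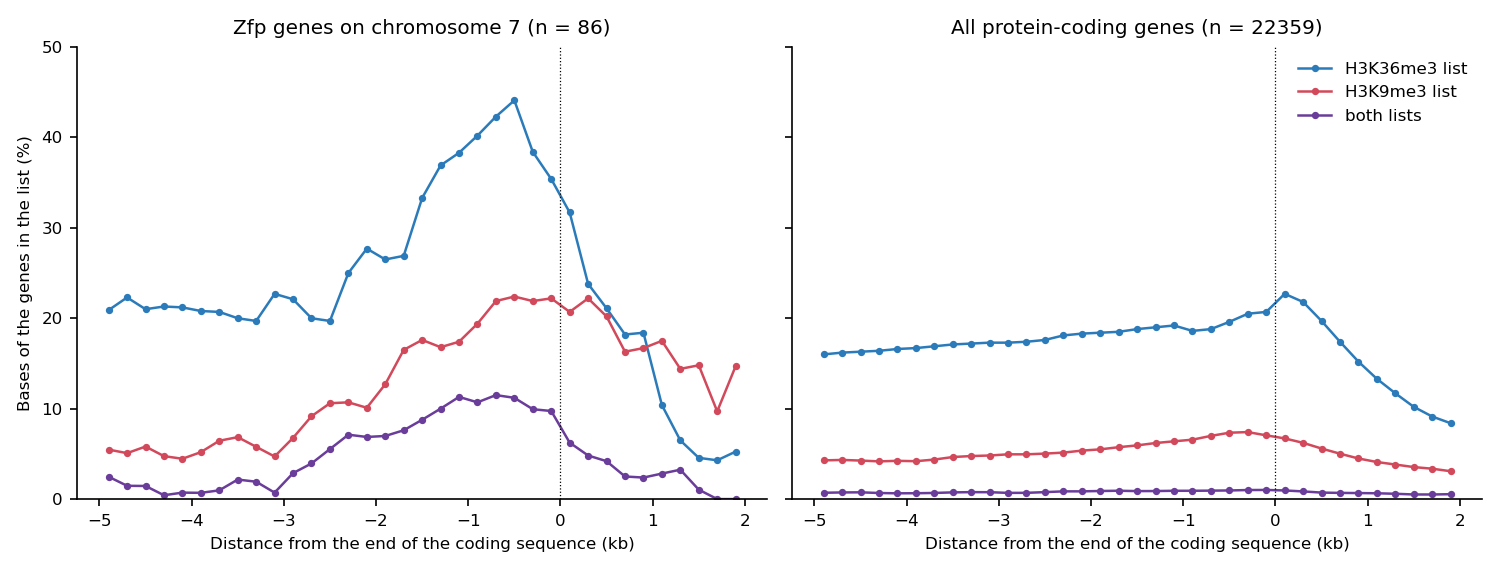
Share of gene bases (%) in each list in 200 bp steps around the last coding base (distance in kb, in the direction of transcription; dotted line, coding end) for the Zfp genes on chromosome 7 and for all protein-coding genes. In the Zfp genes H3K36me3 peaked at 44.1% before the coding end, H3K9me3 lay between 20.2% and 22.4% from 0.8 kb before to 0.6 kb after it, and both lists together reached 11.5%. In all protein-coding genes the highest values were 22.7% for H3K36me3, 7.41% for H3K9me3 and 1.01% for both.

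Each gene was also divided into 10 equal parts. H3K36me3 covered a mean of 3.64% of part 1 and 29.5% of part 8 of the members, and 19.3% of part 10. All protein-coding genes gave 1.56%, 15.9% and 15.2%, a rise from part 1 as well. H3K9me3 covered 9.2% of part 1, 16.3% of part 9 and 15.9% of part 10. In all protein-coding genes H3K9me3 went the other way, from 9.05% in part 1 to 5.07% in part 10, and in Zfp genes elsewhere it was 7.35% and 12.8%.

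The fingers themselves were then located. Translation of the annotated coding sequences gave 969 C2H2 motifs in 84 members, with a median of 11 per gene and a maximum of 33 in Zfp619, and 848 of them (87.5%) were coded by last coding exons. The exceptions without a motif were Zfp36, an RNA-binding protein that destabilises messages through fingers of another type, and Zfp850, whose annotated coding sequence is short. Of all fingers, 406 (41.9%) lay wholly in H3K36me3 regions, 206 (21.3%) wholly in H3K9me3 regions and 115 (11.9%) wholly in both. Of the 5193 fingers coded by genes outside the members, 28.2%, 19.5% and 8.32% did, so that the shares for H3K9me3 lay close together. Finger codons were in the H3K36me3 list for 43.2% of their bases, in the H3K9me3 list for 21.8% and in both for 12.1%. The remaining coding bases of the members gave 41.3%, 16.3% and 8.61%, so that the lists were not limited to the fingers.

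Per gene, the finger codons were touched by H3K36me3 in 43 members and wholly covered in 21, by H3K9me3 in 24 and 12, and by both in 13 and 7. Among the 777 genes with a C2H2 motif, members included, H3K36me3 touched the finger codons of 39.1% and wholly covered those of 19.4%, H3K9me3 of 23.6% and 10.7%, and both of 10.2% and 2.83%. For the members these shares were 51.2% and 25%, 28.6% and 14.3%, and 15.5% and 8.33%. The 7 members whose fingers were wholly in both lists were Zfp787, Zfp444, Zfp180, Zfp94, Zfp936, Zfp553 and Zfp629. In 6 more, Zfp60, Zfp574, Zfp27, Zfp146, Zfp668 and Zfp420, the fingers were partly in both, for 16.6% (Zfp574) to 66.4% (Zfp27) of their bases.

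**Figure D4:**
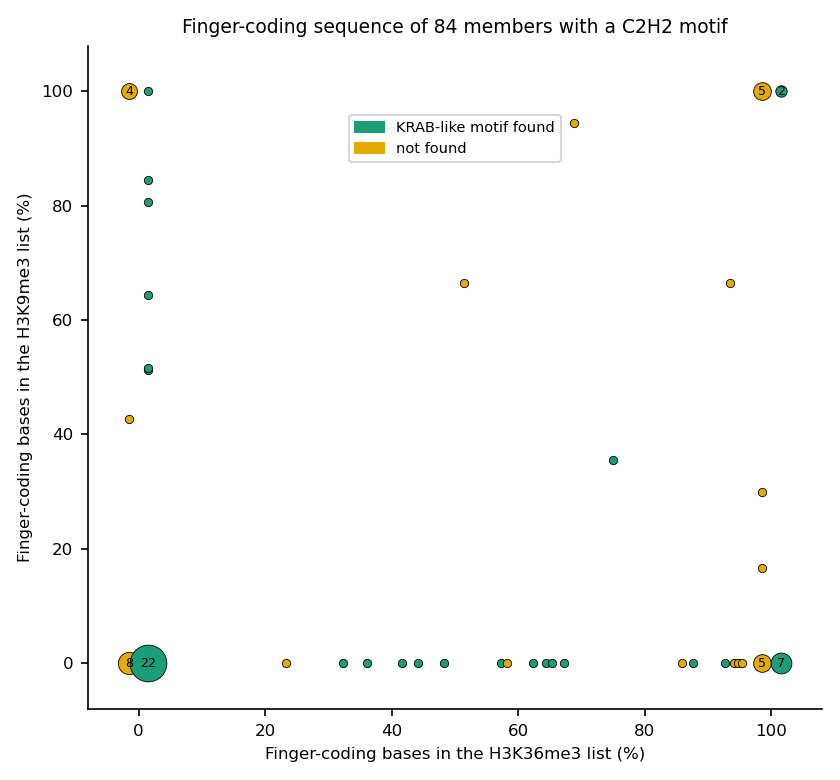
Share of finger-coding bases (%) in the H3K36me3 list (x axis) and in the H3K9me3 list (y axis) for the 84 members with a C2H2 motif; numbers give the genes at a point, and points with and without a KRAB-like motif are drawn slightly apart to the right and left of their value. Wholly in both lists were 7 members (2 with and 5 without the motif), and 22 with and 8 without it lay at 0 on both axes.

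In all, 34 stretches of the members were in both lists, with a median of 654 bp and a range of 200 to 4400 bp. Of these, 13 touched a last coding exon and held 64.2% of the shared bases, 28 touched an intron, and 14 held at least 1 whole finger. Assigned base by base, 51.2% of the shared sequence was last coding exon, which makes up 12.1% of the members' bases, and 41.4% was intron, which makes up 76.1%. Summed over genes, 8.55% of the shared sequence of all protein-coding genes was last coding exon, which makes up 2.97% of their bases, and the members gave 49.2% and 12%. Shared sequence thus held more last coding exon than the genes as a whole in all genes as well as in the members. The 10 members with the most shared sequence are described in order.

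Zfp180 (ENSMUSG00000057101.5, chr7:24866943-24892717, plus strand) had 12 fingers in its last coding exon. H3K36me3 covered 8600 bp in 3 regions and H3K9me3 10317 bp in 7, and 7200 bp were in both. The main shared stretch, chr7:24888201-24892600, ran from the intron through the finger exon, and 4 more lay before it. H3K9me3 also held 3 intronic regions before the first H3K36me3 region.

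Zfp420 (ENSMUSG00000058402.6, chr7:30644998-30700678, plus strand) codes for a KRAB protein known as a negative regulator of p53. Its 17000 bp of H3K9me3 and 8278 bp of H3K36me3 shared 4400 bp. The last coding exon was wholly in the H3K36me3 list and had 0 bp of H3K9me3, and the shared sequence lay mainly in introns. Part of it belongs to Zfp27 (ENSMUSG00000062040.7, chr7:30678352-30691591, minus strand), which lies inside the span of Zfp420 on the other strand. The stretches chr7:30679201-30680400 and chr7:30683001-30683200 count for both genes. In Zfp27, with 2800 bp of H3K36me3, 2400 bp of H3K9me3 and 1400 bp shared, the first of these stretches covered 66.4% of the finger codons.

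Zfp936 (ENSMUSG00000064194.6, chr7:50442540-50445851, plus strand) was covered over its whole annotated length of 3312 bp by H3K36me3 and over 3051 bp by H3K9me3, all of it shared. Its annotated coding sequence does not begin with a start codon, so the gene model may be cut short at the 5′ end. Of its 50-base words 31.4% had more than 1 exact copy in the assembly, the highest value among the 25 members with both marks.

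Zfp629 (ENSMUSG00000045639.8, chr7:134750545-134759311, minus strand) was nearly filled by H3K9me3, with 8200 of 8767 bp, and its single H3K36me3 region of 2800 bp at chr7:134753401-134756200 lay wholly inside. That region held all 19 fingers and ended before the 3′ end of the gene. None of its 50-base words had a second copy (0% of 8767).

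Zfp110 (ENSMUSG00000058638.7, chr7:13420110-13435926, plus strand), which codes for a protein that binds the neurotrophin receptor p75, had 10800 bp of H3K36me3, 3926 bp of H3K9me3 and 2800 bp in both. The marks passed from one to the other along the gene. The last H3K36me3 region ended at 13434800, before the fingers, and the 5 fingers were wholly in H3K9me3 and 0% in H3K36me3.

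Zfp553 (ENSMUSG00000045598.9, chr7:134376575-134381693, plus strand) had 4293 bp of H3K36me3 and 3200 bp of H3K9me3. The shared 2600 bp, chr7:134378601-134381200, held all 12 fingers. Its H3K9me3 regions lay on both sides of an interval of H3K36me3 alone, one at the gene start and the other over the finger exon.

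Zfp444 (ENSMUSG00000044876.8, chr7:6123828-6142951, plus strand) carried 9 H3K36me3 regions, 8 of them outside the last coding exon (7200 bp in all), and 3800 bp of H3K9me3, of which 1800 bp were shared. All 4 fingers lay in the shared stretch chr7:6140801-6141600. Zfp787 (ENSMUSG00000046792.7, chr7:6083091-6107573, minus strand), its near neighbour, had 2200 bp of H3K36me3 and 5110 bp of H3K9me3. The shared region chr7:6083601-6085200 held all 7 fingers and was flanked by H3K9me3 on both sides. Zfp668 (ENSMUSG00000049728.8, chr7:135008684-135020342, minus strand) had 1600 bp, 3800 bp and 1400 bp, respectively, with 94.4% of the finger codons in H3K9me3 and 64.8% in both.

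**Figure D5:**
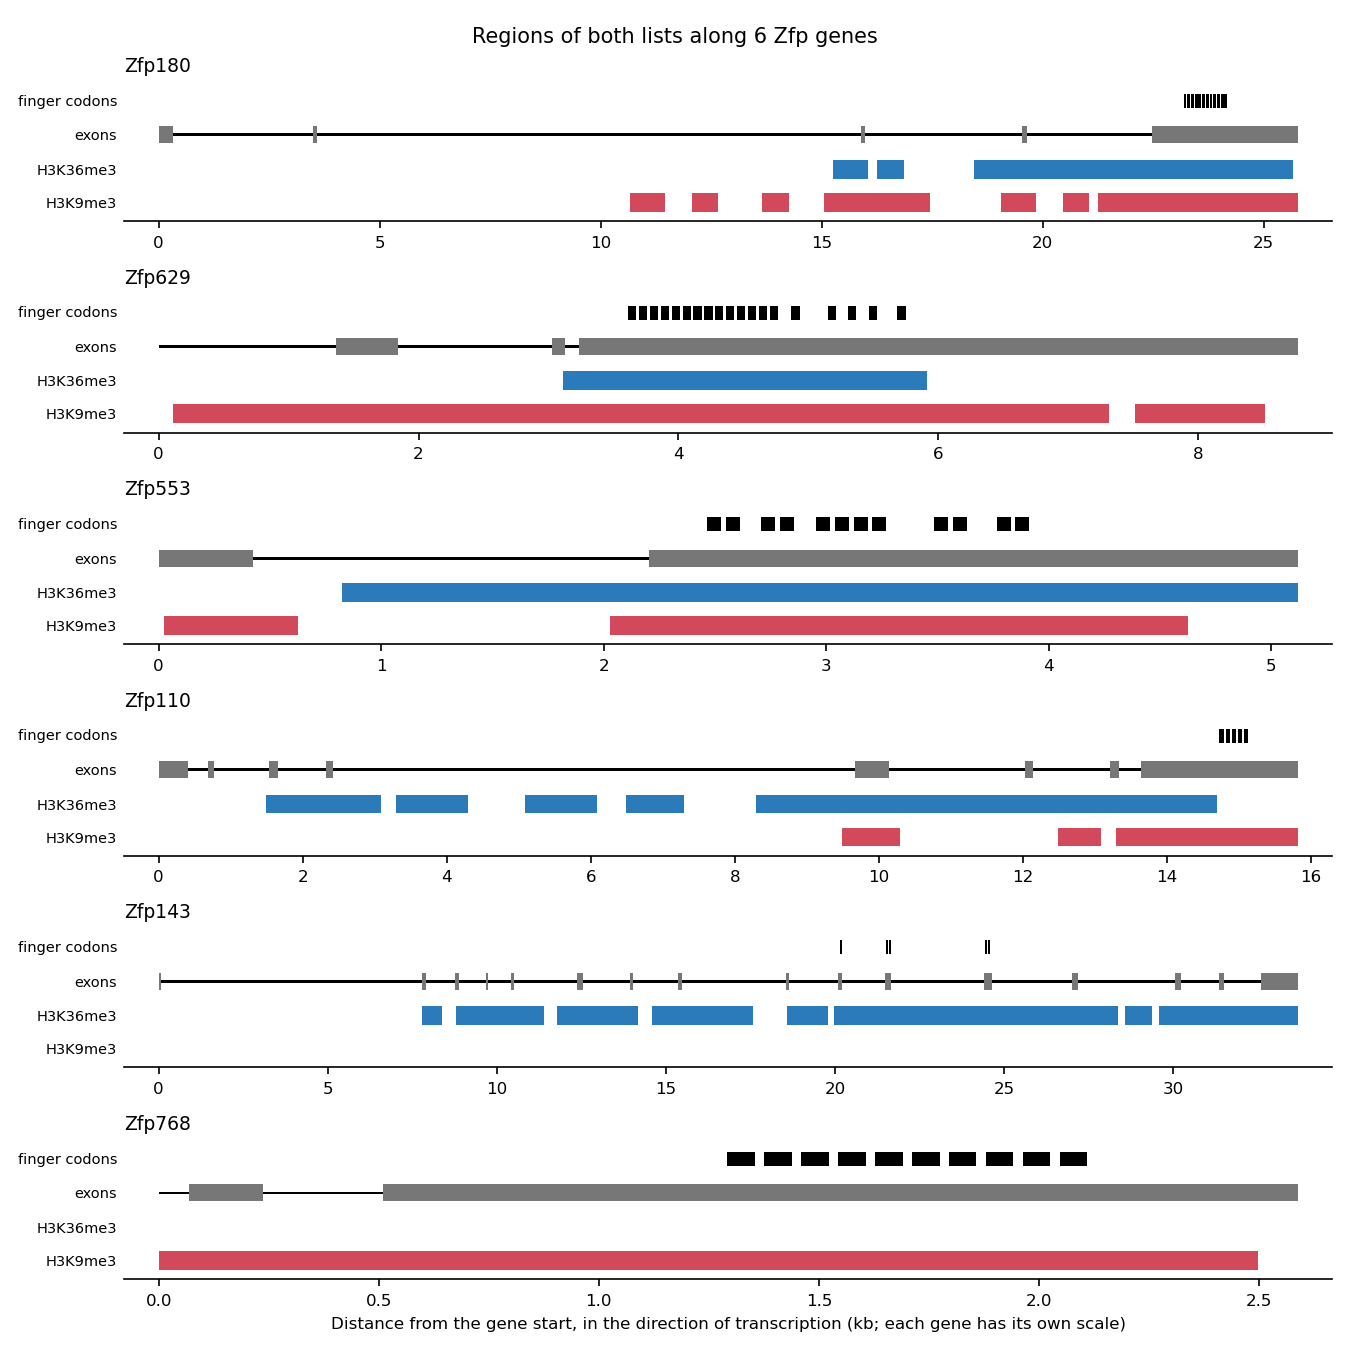
Maps of 6 members drawn to scale from the gene start (kb, in the direction of transcription; each gene has its own scale), with finger codons (black), exons of the transcript used (grey) and regions of H3K36me3 (blue) and H3K9me3 (red). The fingers of Zfp180, Zfp629 and Zfp553 lie in both marks, those of Zfp110 and Zfp768 in H3K9me3 alone, and 96.2% of the finger codons of Zfp143 in H3K36me3 alone. Fingers split by an intron are not drawn, which leaves out some of the 7 fingers of Zfp143, while its 96.2% covers all 7.

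Of the 27 members with H3K36me3 alone, Zfp710 (ENSMUSG00000048897.8, chr7:87169700-87237637) had the most with 24037 bp in 14 regions, 35.4% of the gene. Zfp143 (ENSMUSG00000061079.6, chr7:117205216-117238906), a transcriptional activator of small nuclear RNA and many other promoters, followed with 23106 bp, 68.6% of the gene, in 8 regions, the first of which began 7.785 kb from the gene start. Zfp473 (ENSMUSG00000048012.12, chr7:51986851-52006420), whose human counterpart acts in the processing of histone messages, held 9000 bp and had its fingers wholly covered. Zfp646 (ENSMUSG00000049739.8, chr7:135020310-135029510) held 7910 bp, 86% of its length, and its last region ran on into Prss53 and Vkorc1. Zfp592 (ENSMUSG00000005621.9, chr7:88138598-88190050), a subunit of a chromatin complex with ZMYND8, held 7600 bp, 14.8% of the gene.

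Zfp568, outside the order of shared sequence and named after its values were seen, had more H3K36me3 than any other member. This KRAB protein represses a placental transcript of Igf2. It held 30000 bp in 21 regions, 67.7% of the gene, and its only H3K9me3 region, chr7:30778201-30778800 in an intron, had the same ends as an H3K36me3 region. This was the 1 region in the members that was identical in the lists.

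The 12 members with H3K9me3 alone were led by Zfp536 (ENSMUSG00000043456.8, chr7:38103693-38554771). Its 30 regions of 600 to 1800 bp were scattered over the gene, and 28 of them touched introns and neither the gene start nor the last coding exon. In the other leading genes the mark touched the finger exon. Zfp579 (ENSMUSG00000051550.9, chr7:4935085-4947760) had 6000 bp, with the last coding exon and all 8 fingers covered. Zfp575 (ENSMUSG00000066721.3, chr7:25368857-25372660) had 3400 bp, 89.4% of the gene. Zfp768 (ENSMUSG00000047371.5, chr7:134486311-134488898) had 2498 of its 2588 bp in 1 region from start to end. Zfp667 (ENSMUSG00000054893.8, chr7:6238181-6259485) had 2400 bp and 64.3% of its finger codons covered. Zfp30 (ENSMUSG00000047473.7, chr7:30569017-30579721) held as much, 2400 bp, with 84.5% of its finger codons covered. Others with this mark alone included Zfp541, known from meiosis in germ cells, with 1 intronic region of 600 bp.

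The 22 members in neither list were Zfp524, Zfp78, Zfp773, Zfp418, Zfp551, Zfp128, Zfp324, Zfp112, Zfp235, Zfp114, Zfp108, Zfp428, Zfp607, Zfp14, Zfp939, Zfp619, Zfp788, Zfp658, Zfp819, Zfp771, Zfp764 and Zfp689. They made up 25.6% of the members (interval 17.5 to 35.7), whereas 37.9% of all protein-coding genes held no region. Absence from the lists does not show that a gene lacked the marks, since the study applied a percentile threshold and filters on width and extreme read counts.

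Gene starts were looked at base by base. Within 1 kb of the start, H3K9me3 was found in 14 members, and 12 of these had the mark after the start and 7 before it. The authors kept only bins that overlapped annotated genes. Sequence before a start could thus be listed only through another annotated gene or transcript, or a bin across the start. The sides therefore cannot be compared. The start base itself was covered in 4, Zfp580, Zfp790, Zfp536 and Zfp768. In Zfp61 and Zfp646 the mark lay before the start only, and neither gene held H3K9me3 inside its span. The 251 bp at Zfp61 belong to the region over the last coding exon and 3′ end of its neighbour Zfp94. The 600 bp at Zfp646 belong to the region at the start of its neighbour Zfp668, which is transcribed away from it. H3K36me3 was found at 6 starts and covered the start base in 1, Zfp936. Among all protein-coding genes, H3K9me3 covered the start base of 11.9% and H3K36me3 that of 0.514%. The H3K36me3 count depended on the window, with 3 members within 500 bp (3.49%, against 1.22% of all genes), 15 within 2 kb (17.4%, against 9.2%) and 18 within 1 kb of any coding transcript's start (20.9%, against 7.54%).

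A KRAB-like motif was found within the first 150 residues of 50 members and not in 36. The motif was present in 0.13% of genes without C2H2 fingers and in 26% of the 777 genes with fingers. It misses domains in incomplete gene models: 5 members had a coding sequence without a start codon, 3 of them (Zfp329, Zfp420 and Zfp939) in the group without the motif. H3K36me3 was found in 28 of the 50 members with the motif and in 24 of the 36 without it, against 34% of all protein-coding genes. H3K9me3 was found in 17 and 20 (40.2% of all genes), and neither list in 18 and 4 (37.9% of all genes), respectively. At the last coding exon H3K9me3 touched 9 of 50 against 15 of 36 (10.1% of all genes), and at the start 3 against 11 (19.1% of all genes). The start counts include Zfp61, with the motif, and Zfp646, without it, where the mark lay only before the start. Finger codons were in the H3K9me3 list for 12.6% of their bases in members with the motif and for 37.5% in those without, and in both lists for 4.7% and 24.6%. Over all 777 genes with a C2H2 motif, 20.4% of the finger bases were in the H3K9me3 list and 9.14% in both. The group without the motif includes Zfp420, named above as a KRAB protein, with 922 finger bases in the H3K9me3 list.

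The groups also differed in base composition. The last coding exon had a median G+C content of 46.4% in members with the motif and 53.8% in those without, and 1.76 and 2.79 CpG per 100 bases. Across all members, last coding exons with H3K9me3 had a median of 50.6% G+C and 2.79 CpG per 100 bases, and those without it 47.4% and 1.7, with overlapping ranges (36.6% to 63.8% and 38.1% to 69.3% G+C). For H3K36me3 the medians were 48.3% and 49.1%. The part of base composition in these differences was not tested.

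Zinc finger genes often lie in clusters of related copies, and members separated by at most 500 kb were therefore grouped. This gave 22 clusters, 12 of them with 1 gene. The largest had 14 genes each. In that at chr7:30553571-30954746 (Zfp84 to Zfp146), 12 genes held H3K36me3, 9 held H3K9me3, 6 had shared sequence and 1 was in neither list. Over all protein-coding genes these shares were 34%, 40.2%, 7.14% and 37.9%. In that at chr7:24866943-26012526 (Zfp180 to Zfp526), the counts were 8, 6, 3 and 5. The cluster of 10 genes at chr7:134376575-135029510 (Zfp553 to Zfp646) had 6, 4, 3 and 3, and 33.9% of its finger bases were in both lists. In the 6 genes at chr7:4866819-5005324 (Zfp628 to Zfp580), 0 held the KRAB-like motif and 0 had shared sequence, with H3K36me3 in 2 and H3K9me3 in 3. The 4 genes at chr7:7067401-7162506 (Zfp954 to Zfp772) all held the motif, and 0 carried H3K9me3. Listed and unlisted genes were thus found side by side.

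Copies of one sequence can receive reads from each other, and the authors allowed reads with up to 5 alignments. Of the 50-base words in the members, 3.69% had more than 1 exact copy in the assembly and 1.74% more than 5. The share with more than 1 copy was 3.81% in sequence of both lists, 2.49% in H3K36me3 alone, 2.08% in H3K9me3 alone and 4% outside the lists. Per gene, the median was 3.89% in members with both marks, 2.31% in those with H3K36me3 alone, 2.13% in those with H3K9me3 alone and 3.61% in those with neither. Copies with mismatches were not counted. When bins whose central 50 bases occur more than once were left out, 32159 of the 33559 bp in both lists remained. The counts of members could hardly change under this setting, since a gene keeps its call while 1 bp of a unique bin remains. The part of reads shared between copies was not tested.

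The link between neighbouring fingers was compared as well. Of 534 different words of 11 bases that followed the last histidine codon of a finger, ACTGGAGAGAA was the most frequent, with 55 fingers. It was searched on both strands and occurred in the last coding exon of 31 of 86 members (36%) and of 335 of 22359 genes (1.5%). The word was chosen from the fingers of the members, and only 3.48% of all genes hold a C2H2 motif. The difference thus follows from the choice and shows no trait particular to the members. Zfp genes on other chromosomes were not searched as a set. The exons with the word made up 13 of the 25 members with both marks (52%), 5 of 27 with H3K36me3 alone (18.5%), 3 of 12 with H3K9me3 alone (25%) and 10 of 22 with neither (45.5%). Of the fingers printed above only that of Zfp936 holds it.

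A further set of genes was examined in the same lists, not all of which write or remove the marks. The set held Trim28, Setdb1, Atf7ip, Cbx1, Cbx3, Cbx5, Atrx, Daxx, Mphosph8, Setd2, Kdm4a, Kdm4b and Kdm4c. H3K36me3 was found in 12 of the 13 genes, with Atrx as the exception, and in 34% of all protein-coding genes. Trim28, the corepressor of KRAB proteins, lies on chromosome 7 itself and had 6184 of 6884 bp in the list. Setdb1 had 18554 bp, Setd2 12400 bp, Kdm4a 32400 bp and Kdm4c 4800 bp. H3K9me3, held by 40.2% of all genes, was found in 2 of the 13, with 2000 bp in Atf7ip, a partner of SETDB1, and 1200 bp in Kdm4b, of which 600 bp were also in the H3K36me3 list. The pooled lists do not tell whether these genes or the Zfp genes differed between WT and G34R cells.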

How the data were processed

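The authors aligned 50 bp reads to mm9 with Bowtie, allowing up to 5 alignments and excluding PCR duplicates, and counted them in 200 bp bins. Per the study's methods, bins were scaled to total reads, WT and G34R distributions were matched, genic bins above the 95th percentile of either cell type were kept, and adjacent bins were merged with bedtools. The methods also give a width limit of 500 bp and remove regions with extreme read counts. As worded, the limit excludes merged regions wider than 500 bp, whereas the narrowest listed region is 600 bp wide, so the direction of this filter is not certain. The submitters' processing notes name Bowtie 1.0.0 and bedtools 2.20.1. The deposited lists give chromosome, start and end (1-based) with WT and G34R pooled, and 0 columns of values per sample. They cannot show changes between the cell types.

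Genes were taken from GENCODE vM1. Overlaps were counted in Python 3.11.15 with numpy 2.4.6, pysam 0.24.0 and numba 0.67.0 from 1 bp upwards. Overlap counting was tested on simulated data, with 0 differences from direct comparison in 1600 tests. C2H2 motifs (C, 2 or 4 residues, C, 12 residues, H, 3 to 5 residues, H) and the KRAB-like motif were sought in translations of the GENCODE coding sequences in place of RefSeq proteins, which were not used here. The KRAB-like pattern (F, L or M, any residue, D, V or L, any residue, V, I, L or M, any residue, F) was chosen after an earlier, narrower pattern had been seen to miss members. The names were read strictly, which leaves out 1 gene with a letter after the number, Zfp780b.

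The 86 genes and the gene lists were chosen with earlier results of these data known. Described in full were the 10 members with the most shared sequence, the 5 leading members with each mark alone (Zfp30, equal to the last with H3K9me3, included), and Zfp629 and Zfp787, chosen by name. Other genes were named after their values were seen. Alternatives were a larger minimum overlap, wider regions only, joined regions, other gene spans, windows and exons, and bins of unique sequence.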

Additional observations from a re-analysis of the deposited data

How the results depend on the processing

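Of 154 alternative values of the counts of members and of the shared sequence, 138 stayed within 1.5 times the value given and 16 did not. With regions of at least 1 kb only, H3K9me3 was found in 21 members, each list in 12 and shared sequence in 10, and 20251 bp were in both lists. Under this setting H3K9me3 touched the start of 9 members and an intron of 17, and both lists an intron of 7. These follow from leaving out narrow regions, since the median H3K9me3 region was 800 bp wide. H3K36me3 touched the start of 3 members within 500 bp, of 15 within 2 kb and of 18 when each annotated coding transcript's own start was taken. Both lists shared sequence at 2 starts with regions within 2 kb joined and at 2 with the span of the transcript with the longest coding sequence. No share over all genes is given for these settings. Within 2 kb there were 2 such starts (2.33%, against 0.662% of all genes). With all transcript starts there were 3 (3.49%, against 0.778%). With the last 500 bp as the 3′ end, H3K36me3 was found in 15 members and both lists in 4. The settings added after seeing the data, which also took Zfp780b or kept only the 80 members whose regions touched no other protein-coding gene, moved no count by 1.5 times. The counts with bins of unique sequence alone could hardly move and say little about reads shared between copies. No paired analysis was possible because each group has 1 library and the lists pool WT and G34R cells. Without read values, the depth, the strength of a region and the spread between cultures are unknown. A stricter enrichment threshold could not be applied.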
